A study of Drosophila melanogaster with 2 samples.

Results

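Single-minded (Sim) is a transcription factor of the bHLH-PAS family. In Drosophila it is known to set the fate of the midline of the embryonic nerve cord, a narrow strip of neurons and glia that organises the tissue around it. Sim pairs with Tango, its bHLH-PAS partner, and the pair binds a short sequence called the CNS midline element (CME), whose core is ACGTG. Introns of Drosophila genes are known to hold many of the enhancers that drive expression in the embryo, and first introns, which lie just behind the promoter, are a frequent place for them.

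The sites described here are the Sim peaks that lay inside introns and away from promoters. They were taken from the authors' pooled optimal list of reproducible peaks. The summit of a peak, its highest point, had to lie more than 500 bp from the transcription start site (TSS) of every protein-coding gene, inside a protein-coding gene and outside every annotated exon. This placed 984 of the 2682 optimal peaks, 36.7% (exact 95% interval 34.9% to 38.5%), in the intronic class. Of the remaining peaks, 1080 lay no more than 500 bp from a TSS and are called promoter peaks, 468 lay between genes and 150 lay in exons away from promoters. The choice used position alone, so peak strength, recovery in each replicate and sequence were not part of it.

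The peaks come from chromatin immunoprecipitation and sequencing (ChIP-seq) of whole embryos aged 0 to 24 h, in 1 group of 2 biological replicates. Per the labels, the embryos of both replicates were of the strain sim-GFP and carried a transgene for Sim fused to enhanced GFP, the fusion was pulled down through its GFP tag although the antibody entry reads sim, and chromatin was sonicated to a range of 200 to 800 bp. A control experiment is named in the labels but not analysed here, and no group lacks the fusion. Whole embryos pool every cell type and all of embryogenesis, so few cells with a site occupied and weak occupancy in many cells cannot be told apart in a peak's strength. The sources used here do not say how much of the sim locus the transgene carries, so reads from the transgene and from the native gene cannot be told apart at sim. Read counts are not part of the peak lists and the depth of each replicate is therefore unknown. Under the same rule the conservative list held 897 intronic peaks of 2451, the list of replicate 1 alone 372 of 1071, and the list of replicate 2 alone 613 of 1676.

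The summit base and the 50 bases to either side of it are shown first for 6 of the strongest intronic peaks, because they show what the strongest sites look like at the level of sequence. The bases are from the RefSeq copy of dm6, on the plus strand. They lay at chrX:2137308-2137408 in ph-p, chr2L:6612657-6612757 in CG11050, chrX:3742166-3742266 in Tlk, chrX:4910313-4910413 in CG32772, chr3R:5215477-5215577 in cno and chr3L:14759452-14759552 in Trl. Capitals mark AAATAT or its reverse complement ATATTT, the 6-base word that differed most between intronic summits and the sequence beside them. None of the 6 windows held ACGTG.
ph-p: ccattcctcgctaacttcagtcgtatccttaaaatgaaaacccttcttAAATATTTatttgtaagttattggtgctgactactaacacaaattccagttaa
CG11050: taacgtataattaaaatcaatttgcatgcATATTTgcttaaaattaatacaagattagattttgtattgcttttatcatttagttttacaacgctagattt
Tlk: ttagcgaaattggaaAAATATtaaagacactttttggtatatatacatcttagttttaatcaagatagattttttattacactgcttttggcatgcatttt
CG32772: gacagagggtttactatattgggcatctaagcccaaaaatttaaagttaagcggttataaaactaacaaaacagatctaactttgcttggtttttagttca
cno: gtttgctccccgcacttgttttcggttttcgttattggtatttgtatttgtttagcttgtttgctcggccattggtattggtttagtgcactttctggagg
Trl: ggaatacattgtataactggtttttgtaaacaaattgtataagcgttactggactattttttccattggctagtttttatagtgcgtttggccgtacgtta

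Among the 5 strongest intronic peaks with ACGTG within 50 bp of the summit, 4 are shown because this is the known core of the Sim and Tango site. They lay at chr3R:13068195-13068295 in sim, chr2L:6051394-6051494 in CG9135, chr3R:11656733-11656833 in CG42327 and chr3L:5187111-5187211 in shep (dm6, plus strand, RefSeq bases). Capitals mark ACGTG or its reverse complement CACGT.
sim: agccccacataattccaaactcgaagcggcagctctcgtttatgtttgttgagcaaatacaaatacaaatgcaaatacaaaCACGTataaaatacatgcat
CG9135: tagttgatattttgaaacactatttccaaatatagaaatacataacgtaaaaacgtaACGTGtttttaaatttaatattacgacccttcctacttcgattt
CG42327: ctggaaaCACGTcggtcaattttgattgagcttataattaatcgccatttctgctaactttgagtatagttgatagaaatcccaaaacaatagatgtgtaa
shep: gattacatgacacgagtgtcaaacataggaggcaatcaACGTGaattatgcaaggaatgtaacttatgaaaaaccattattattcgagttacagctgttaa

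The windows of the strongest peaks in 2 known midline genes, aos and S, are shown as well, since Sim directs the expression of such genes. They lay at chr3L:16480519-16480619 in aos and chr2L:1072337-1072437 in S (dm6, plus strand, RefSeq bases). Neither held ACGTG, so no base is in capitals.
aos: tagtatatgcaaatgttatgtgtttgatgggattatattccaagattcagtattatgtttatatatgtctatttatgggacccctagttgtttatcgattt
S: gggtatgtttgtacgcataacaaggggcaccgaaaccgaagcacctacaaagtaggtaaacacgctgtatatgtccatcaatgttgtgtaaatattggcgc

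The 20 strongest intronic peaks included peaks in genes for chromatin proteins, transcription factors and kinases, and in several genes with no role given here. The strength of a peak is given here as the signal value, the authors' own measure from their peak caller, which has no further unit and is used within 1 list only. It had a median of 73.7 over the 984 intronic peaks, with quartiles of 60.7 and 105, a lowest value of 2.01 and a highest of 609. The highest lay in the first intron of ph-p (FBgn0004861), which encodes a core subunit of Polycomb repressive complex 1. Its signal value was 609 in the pooled list, 266 in the ranked list of replicate 1 and 354 in that of replicate 2. The peak in CG11050 (FBgn0031836) had 592 in the pooled list, 289 in replicate 1 and 299 in replicate 2. In both replicates these 2 peaks were the strongest of all intronic ones.

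Genes of kinases and of a cell junction protein were also among the 20. Tlk (FBgn0283657), the Tousled-like kinase of chromatin assembly, had a peak of 486 in the pooled list, with 216 in replicate 1 and 278 in replicate 2. The peak in cno (FBgn0259212), which encodes the junction scaffold Canoe, had 399 in the pooled list. It was the one among the 7 strongest in which replicate 1, with 230, was above replicate 2, with 173. The peak in Btk, a Tec family tyrosine kinase gene, had 273 in the pooled list, with 89.4 in replicate 1 and 183 in replicate 2.

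Others of the 20 lay in genes for chromatin proteins and transcription factors. Trl (FBgn0013263), which encodes the GAGA factor, had a peak of 327 in its second intron, with 128 in replicate 1 and 192 in replicate 2. Adf1, a gene for a transcription factor first known from the Adh promoter, had 358 at 787 bp from the TSS. A peak of 322 lay in an intron shared by HmgD and HmgZ, a pair of genes for HMG box chromatin proteins, 542 bp from a TSS of HmgZ. Gug, the gene of the corepressor Atrophin, had 278, NFAT had 293, and Hr4, a nuclear receptor gene of the ecdysone response, had 293. The corepressor gene sbb (scribbler) held 2 of the 20 strongest peaks, with 360 and 292, both in the same first intron, 18807 and 22042 bp from the nearest TSS. The remaining hosts among the 20 strongest were CG12769 (438), CG32772 (416), the lysophospholipid acyltransferase gene LPCAT (304), aos (302), Reph (298), CG32486 (287) and CG31635 (274).

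All 30 of the strongest intronic peaks, those with a signal value of 238 or more, overlapped a peak in both replicate lists. Of these 30, 27 lay in a first intron, 12 lay within 1000 bp of a TSS and none held ACGTG within 50 bp of the summit. Over all 984 intronic peaks, 70.2% lay in a first intron, 18.5% lay within 1000 bp of a TSS and 5.28% held ACGTG. Near the limit of the class, the peak in CG31523 at 502 bp from its TSS (76.5) and that in ph-p at 503 bp (609) were just outside 500 bp. Just inside, and therefore counted as promoter peaks, were those of Mhcl at 500 bp (94.4) and CG10365 at 499 bp (104.5). The strongest intronic peak is thus also one of the nearest to a promoter.

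**Figure D1:**
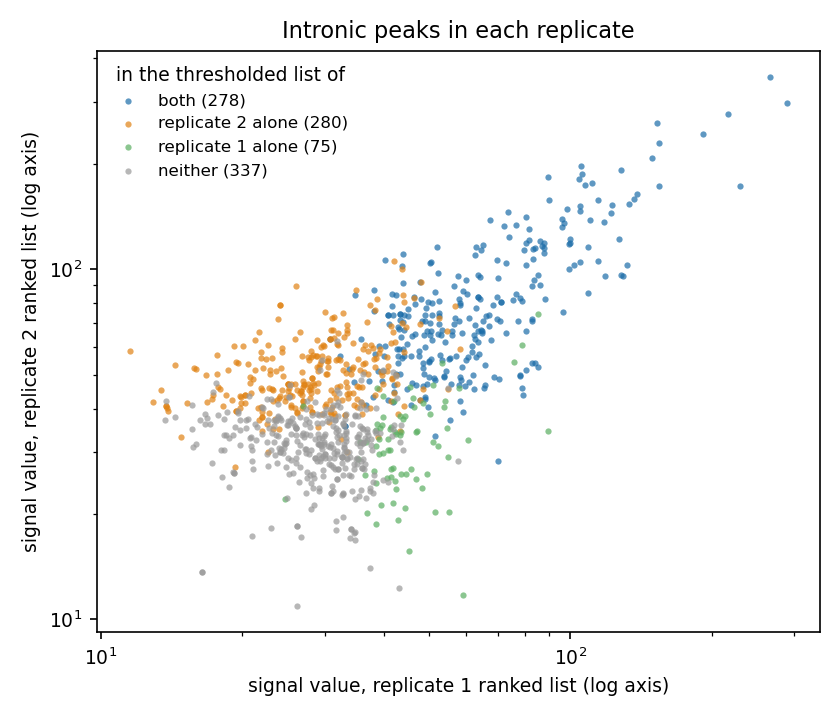
Signal value of each intronic peak in the ranked list of replicate 1 (horizontal, log axis) and of replicate 2 (vertical, log axis), for the 970 peaks present in both ranked lists. Colours give the thresholded lists that a peak overlapped: 278 of those plotted both lists, 280 replicate 2 alone, 75 replicate 1 alone and 337 neither. The peaks in both lists take up the upper right of the plot and those in neither the lower left.

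Recovery of the intronic peaks in the single replicates was highest for the strongest peaks. The pooled list and the replicate lists rest on the same 2 libraries, so strength and recovery are not independent. Of the 984 peaks, 278 (28.3%) overlapped a peak in the thresholded lists of both replicates, 75 in that of replicate 1 alone, 288 in that of replicate 2 alone and 343 (34.9%) in neither. Divided by signal value into 4 parts of 246 peaks, the strongest part had 88.2% of its peaks in both lists, the next 22.4%, the third 0.407% and the weakest 2.03%. The weakest part includes peaks that overlap a stronger one, described below, and can share its overlap with a replicate peak. In the much longer ranked lists, which keep peaks below the threshold, a peak was found for 974 intronic peaks in replicate 1 and for 980 in replicate 2. The median signal value there was 34.6 in replicate 1, with a range of 11.5 to 289, and 43.4 in replicate 2, with a range of 10.9 to 354. Spearman's rho between the replicates over the 970 peaks found in both was 0.501, a description of peaks that share 2 libraries.

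Intronic peaks were found in both replicate lists less often than promoter peaks, while no difference from intergenic ones was detected. The share in both lists was 28.3% of intronic peaks and 34.6% of promoter peaks, a difference of -6.38 percentage points (two-sided Fisher's exact test, adjusted p = 0.0123 over 6 tests). Against the 28.8% of intergenic peaks the difference was -0.594 points (Fisher's exact adjusted p = 0.889). The share overlapping the conservative list was 79.8% of intronic, 80.6% of promoter and 79.5% of intergenic peaks, and neither difference passed (Fisher's exact adjusted p = 0.889 for both). A signal value above the median of the whole list was found in 48.4% of intronic peaks, 53.1% of promoter peaks (Fisher's exact adjusted p = 0.103) and 49.1% of intergenic peaks (adjusted p = 0.889). These tests, and those on sequence below, count peaks as separate units. Neighbouring peaks are not independent, and all of them rest on the same 2 libraries. The difference in strength from promoter peaks passed when the promoter limit was 1000 bp (-7.24 points, Fisher's exact adjusted p = 0.00396), in the list of replicate 2 alone (-8.26, 0.00649) and when the upper 25% of signal values were counted (-6.38, 0.00616). Under the other alternatives run for it, among them the list of replicate 1 alone, it did not pass (Fisher's exact adjusted p from 0.0523 to 0.153).

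**Figure D2:**
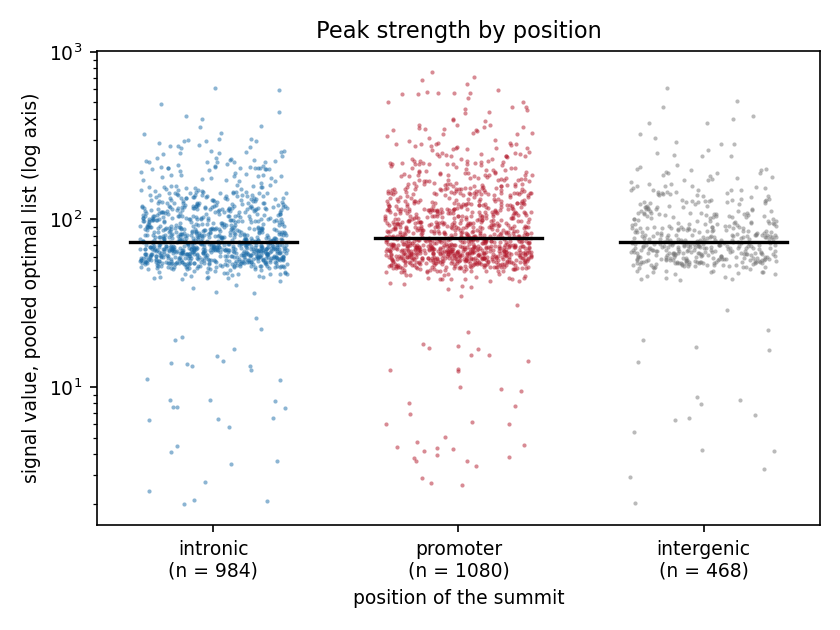
Signal value in the pooled optimal list (log axis) of each intronic, promoter and intergenic peak, with 1 point a peak and a bar at the median (73.7, 77.4 and 73.6). The 3 clouds overlap over nearly their whole range, and each has a thin lower tail below 20.

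The lower tail was made of stacked peaks. A signal value under 20 was found in 31 intronic peaks, and all 31 overlapped a stronger peak of the optimal list. In all, 34 intronic peaks overlapped a stronger one. Such a pair shares the peak of a replicate's ranked list and so its value there. In ush, for example, peaks of 45.5 and 13.9 in the pooled list overlapped each other and both had 26.2 in replicate 1 and 18.4 in replicate 2. Most peaks had the same width, 304 bp in 917 of the 984. The 67 narrower ones, down to 76 bp, had a median signal value of 228, against 71.5 for those of 304 bp.

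Intronic peaks were denser in first introns than in later ones. A first intron of at least 1 transcript held 691 of the 984 summits, 70.2% (exact 95% interval 67.3% to 73.1%), while first introns made up 43.4% of the sequence that meets the rule. That sequence amounts to 48.5 Mb, 36.2% of the assembled arms, and held 20.3 intronic peaks per Mb. Per Mb there were 32.8 peaks in first introns (exact Poisson 95% interval 30.4 to 35.4) and 10.7 in later introns (9.48 to 12). For comparison, sequence within 500 bp of a TSS held 70.4 peaks per Mb and sequence between genes 13.6. The intervals cover counting error only.

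The density was highest close to the TSS and lowest beyond 10 kb, in first and in later introns. Between 500 and 1000 bp from the nearest TSS, first introns held 55.4 peaks per Mb (exact Poisson 95% interval 47.0 to 65.0) and later introns 27.4 (18.5 to 39.0). Beyond 10 kb, first introns held 21.1 per Mb (16.9 to 26.0) and later introns 5.10 (3.96 to 6.46). In each of the 5 distance bins the first introns had the higher density and the 2 intervals did not overlap. Distances were not matched within a bin. Peaks in first introns had a median signal value of 76.6 and 30.4% were in both replicate lists, against 70.0 and 23.2% for the 293 peaks in later introns. The share in first introns was 78.0% in the strongest of the 4 parts by signal value, 71.5% and 69.1% in the next and 62.2% in the weakest.

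**Figure D3:**
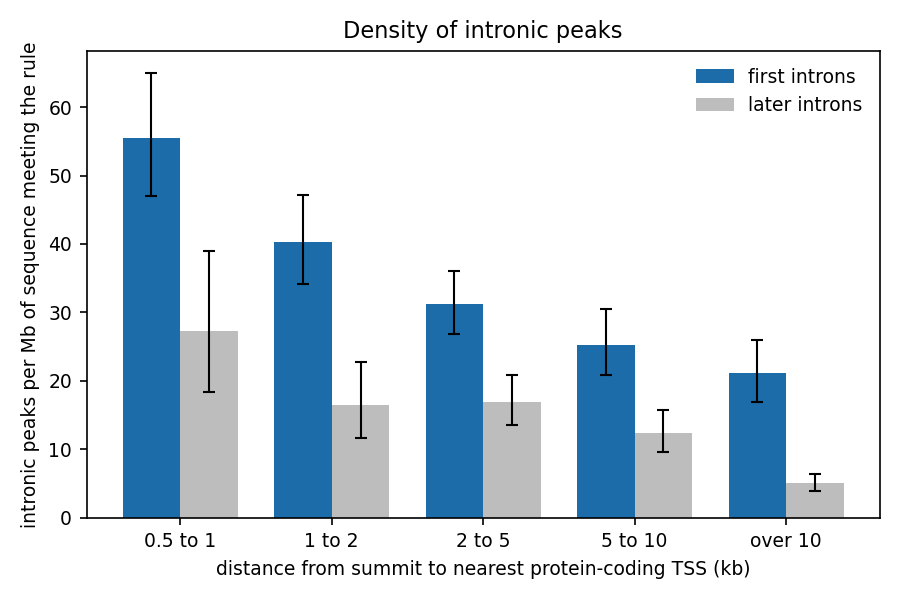
Intronic peaks per Mb of sequence that meets the rule (vertical) in first and later introns, by distance of the summit from the nearest protein-coding TSS in kb (horizontal), with exact Poisson 95% intervals as error bars. First introns held 55.4 per Mb in the nearest bin and 21.1 in the farthest, later introns 27.4 and 5.10, and first introns were higher in each bin.

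Distances varied widely among the sites. The nearest TSS lay at a median of 3072.5 bp, from 502 to 40534 bp, and it belonged to the gene that held the peak in 794 of 984 cases (80.7%, exact 95% interval 78.1% to 83.1%). The intron around the summit had a median length of 10358.5 bp, from 62 to 126467 bp. Where introns of several transcripts or genes covered the summit, the shortest was taken. The nearest exon lay at a median of 1321.5 bp. A TSS of a non-coding gene lay within 500 bp of 20 peaks, annotated as ncRNA at 17 of them, tRNA at 2 and snoRNA at 1. Another intronic peak lay within 1 kb of 141 summits (14.3%) and within 5 kb of 362 (36.8%). Arm X had the highest density, with 23.1 peaks per Mb of sequence that meets the rule, and 3R the lowest of the large arms, with 17.9. Arm 4 held 0 of the 984 peaks in 0.398 Mb, which allows a share of up to 0.374% by the exact 95% interval.

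The intronic peaks lay in 624 genes, 4.47% of the 13945 protein-coding genes. Of these, 401 held 1 peak, 134 held 2 and 89 held 3 or more, and 45 peaks lay inside more than 1 gene and were given to each. Long introns give more room for a peak, and 4771 of the 13945 genes have no sequence that meets the rule and could not hold one. Among the 1168 genes with at least 10 kb of sequence that meets the rule, 355 (30.4%) held a peak, and this share is the one to set beside the counts of long genes below. The share of hosts was 0.489% in genes with up to 1 kb of such sequence and 45.0% in genes with more than 50 kb. Peaks per Mb did not follow the same order, with 19.0 in the shortest group, 36.3 in genes of 5 to 10 kb and 12.4 in those above 50 kb.

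Genes with many peaks included components of receptor tyrosine kinase signalling, steroid response and muscle development. Raf, the kinase that carries the signal from Ras to the MAP kinases, held 9 peaks, of which 5 were in both replicate lists. The strongest in Raf had 201 in the pooled list, with 76.8 in replicate 1 and 134 in replicate 2. Raf thus held 337 peaks per Mb of sequence that meets the rule, and CHES-1-like, a forkhead factor gene with 7 peaks, held 465. All such sequence held 20.3, but these genes were chosen by their number of peaks, so a higher density is no separate result. Some genes with fewer peaks were denser, as ph-p with 3 peaks and 901 per Mb. Like Raf, the founder cell adhesion gene kirre held 9 peaks, but over 309 kb of such sequence, which gives 29.1 per Mb. The gene ush, whose product is a cofactor of GATA factors, held 9 peaks, of which 1 was in both lists (176 in the pooled list, 88.2 in replicate 1, 82.1 in replicate 2). Overlapping peaks were counted separately, and the count for ush includes the overlapping pair described above.

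In sbb, 6 of 7 peaks were in both replicate lists, the largest such number among the 10 genes with most peaks. The remaining genes of that group were apt, which encodes the transcription factor Apontic, the ecdysone response gene Eip75B, RapGAP1, a regulator of the small GTPase Rap1, and osp (outspread), each with 6 peaks and with 1 or 2 of them in both lists. EcR, the ecdysone receptor gene, also held 6, with 0 in both lists, and came eleventh because ties were ordered by summed signal value. CG1677 held the most, 10 peaks, but its intron spans other genes, and the TSS nearest to its peaks belonged to unc-119, CBP, Dok, brk, Atg5 or CG42780 and never to CG1677 itself.

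**Figure D4:**
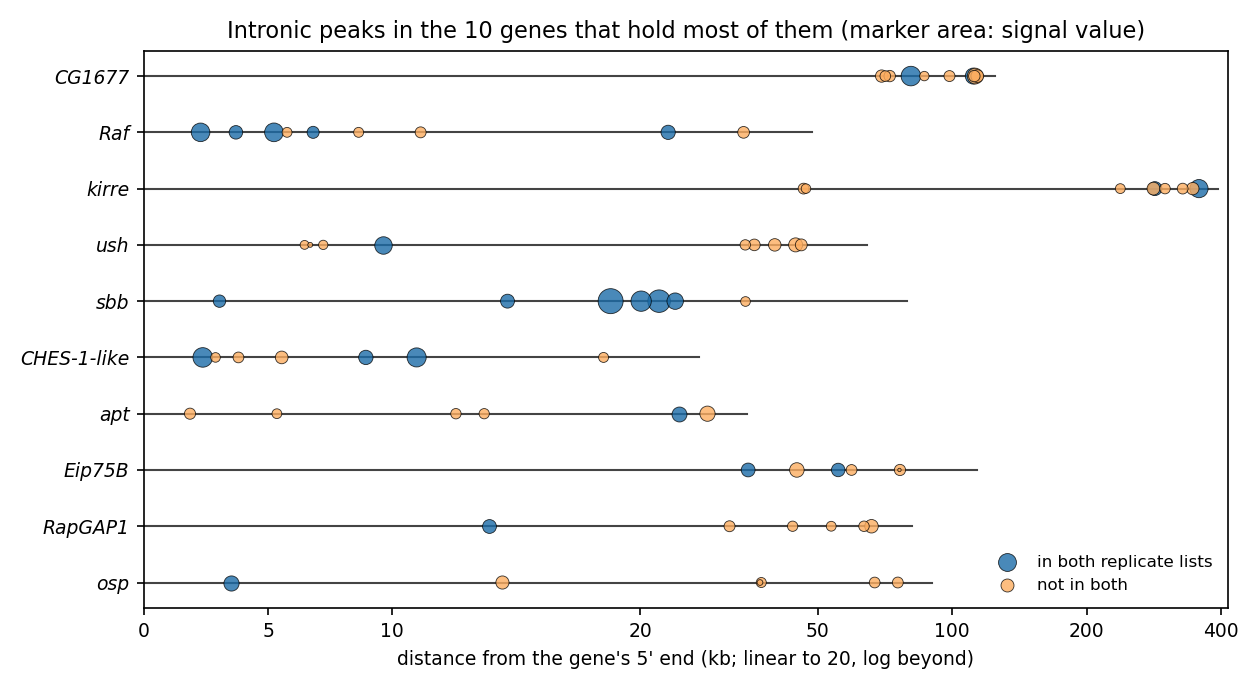
Position of each intronic peak in the 10 genes that held most of them (ties by summed signal value), as distance from the gene's 5' end in kb (linear to 20, log beyond), with the line running to the 3' end. Marker area follows the signal value, and blue marks peaks in both replicate lists. The peaks of sbb, 6 of 7 in both lists, and of Raf, 5 of 9, stand beside those of ush, with 1 of 9.

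Midline genes are the known targets of Sim, and 4 of the 14 listed held an intronic peak. All 4 were among the 6 midline genes with at least 10 kb of sequence that meets the rule. The strongest was in the first intron of aos (FBgn0004569), which encodes Argos, a secreted inhibitor of the EGF receptor. It had 302 in the pooled list, 106 in replicate 1 and 187 in replicate 2, and it lay 3081 bp from the TSS of aos and inside the overlapping gene CG33158. S (FBgn0003310) encodes Star, which helps an EGF receptor ligand through the secretory pathway, and held 4 peaks in its first intron. Of these, the peak of 219 had 114 in replicate 1 and 105 in replicate 2, and the peak of 203 had 87.1 in replicate 1 and 116 in replicate 2. Both were in both replicate lists. The peaks of 79.3 and 48.1 were not, with 27.6 and 31.7 in replicate 1 and 56.1 and 19.1 in replicate 2.

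The gene of Sim itself and that of the midline repellent Slit held the other midline peaks. In sim (FBgn0004666), 4154 bp from the nearest TSS, a peak of 212 had 118 in replicate 1 and 95.4 in replicate 2. It was in both lists and held TACGTG on the minus strand, as shown in capitals above for its core. Sim is known to maintain its own expression. The other peaks in sim, with 66.9 and 55.9, were in neither list and held no ACGTG. In sli (FBgn0264089) a peak of 112 had 42.3 in replicate 1 and 61.9 in replicate 2 and was in the list of replicate 2 alone, and one of 60.3 was in neither. The remaining 10 midline genes, wrapper, oc, glec, D, Tl, rho, btl, vvl, en and mfas, held no intronic peak. Of these 10, 2 have no sequence that meets the rule and could not hold one.

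EGF receptor signalling genes held intronic peaks in 9 of 18 cases, and in 7 of the 9 with at least 10 kb. Midline cells are known to send an EGF receptor ligand to their neighbours. The hosts covered several steps of the pathway. Besides S and aos, they were vn, a ligand gene (66.4), drk, the adaptor that links the receptor to Ras (146), Raf (201), the antagonist gene sty (57.4), and the nuclear genes aop, edl and pnt. Of these, aop encodes the repressor Yan (199), edl a small protein that binds ETS factors (204), and pnt the ETS activator Pointed (135). The receptor gene Egfr and the ligand gene spi held none. In 7 of these 9 genes a peak was in both replicate lists, the exceptions being vn and sty.

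The bHLH-PAS family to which Sim belongs had 5 hosts among 12 genes and 5 among the 7 with at least 10 kb. These were sim, gce (141), one of the juvenile hormone receptor genes, the hypoxia factor gene sima (104.8), tai (81.1), a coactivator gene of the ecdysone receptor, and dysf (50.8), a tracheal factor gene. Genes for Tango (tgo) and Trachealess (trh) held none. Chromatin regulators had 8 hosts of 28 and 4 of the 4 genes with at least 10 kb. After ph-p and Trl came osa (214), a Brahma complex subunit gene, and Psc (150), another gene of Polycomb complex 1. Nuclear receptors and ecdysone response genes had 6 hosts of 18, and 6 of 13 with at least 10 kb. Among them Hr4 held 3 peaks, each in both lists, Hr3 (228) held 3 with 2 in both, and the 6 peaks of EcR had a highest value of 78.4.

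Hosts in other signalling pathways included ligands, receptors and nuclear effectors. BMP and TGF-beta genes had 7 hosts of 16, and 4 of the 4 with at least 10 kb, led by the signal transducer gene Mad (220), shn (143), a cofactor gene of Mad, the ligand gene dpp (114) and the receptor gene wit (104.7). Wnt and Hedgehog genes had 6 of 22, and 4 of 8 with at least 10 kb, led by the Wnt receptor gene fz (232), the Wnt antagonist gene nkd (121), the Wnt coreceptor gene arr (70.8) and the Hedgehog receptor gene ptc (64.3). Notch pathway genes had 4 of 19, and 2 of 8 with at least 10 kb. These were the receptor gene N (139), mam (123), which encodes its nuclear coactivator, bib (84.0) and Notum (65.3), which is known as a Wnt deacylase. Axon guidance genes had 7 of 21, and 7 of 14 with at least 10 kb, led by the netrin genes NetA (162) and NetB (141), Sema1a (138) and the netrin receptor gene fra (130). Netrins are known to be made by midline cells. Counting the gene of the nearest TSS in place of the gene around the peak, the axon guidance hosts numbered 3.

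In 3 lists of mostly long genes of the nervous system, the share of hosts was below the 30.4% of all long genes. The axon guidance genes given above, also mostly long, went the other way, with 7 of 14 with at least 10 kb. The cell recognition genes, which include the dpr, DIP and beat families, had 6 hosts of 32, and 6 of 30 with at least 10 kb, led by beat-Ib (180), DIP-alpha (114), Fas3 (100.3) and caps (98.4). Counted by the gene of the nearest TSS, their hosts numbered 3. Ion channel and receptor genes had 3 of 25, and 1 of 20 with at least 10 kb. Their hosts were the phosphodiesterase gene dnc (150) and the channel genes Ih (74.6) and Nmdar1 (64.1). Neuronal markers had 2 of 20, and 2 of 12 with at least 10 kb, fne (67.8) and CadN (56.8), neither in both replicate lists. No test was made of any list, and these counts are descriptions.

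Marker lists of other tissues had between 1 and 4 hosts each. Segmentation and Hox genes had 4 of 23, and 4 of 10 with at least 10 kb, with Antp (130), hth, lab (69.5) and Ubx (65.4). Dorsoventral patterning genes had 3 of 15, and 3 of 6 with at least 10 kb (ths 120, dpp 114, sog 66.9). Gut endoderm genes had 3 of 9, and 2 of 2 with at least 10 kb (Fas3 100.3, cad 75.6, lab 69.5), and glial genes 3 of 11, and 1 of 1 (pnt 135, Gs2 128, loco 63.2). The shares of long genes with a peak were at or above 30.4% in these 4 lists, of which the last 2 hold very few such genes. They were also above it in the hemocyte and fat body list and the germline list below, which hold few such genes too. Muscle genes had 2 of 15, and 2 of 8 with at least 10 kb (Msp300 125, how 120), and tracheal genes 2 of 10, and 1 of 4 (rib 134, dysf 50.8). Hemocyte and fat body genes had 1 of 11, and 1 of 3 with at least 10 kb (ush 176), epidermal genes 1 of 9, and 1 of 4 (grh 185), and germline genes 1 of 9, and 1 of 1 (pum 108). Heat shock genes had 1 of 10 (Hsp83 186), with 0 genes of at least 10 kb. Of these 10 genes, 8 have no sequence that meets the rule and could not hold a peak. Ribosomal protein genes had 0 of 14, none of which has 10 kb of sequence that meets the rule and 5 of which have none. Other lists held such genes too, as the dorsoventral list with 6 of 15. The Notch pathway list and the segmentation and Hox list held 4 each. Some genes stand in more than 1 list, as do aos, S, sim, sli, pnt, dpp, dysf, Fas3 and lab.

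The DNA at intronic summits was rich in A and T. In the window within 50 bp of the summit GC content averaged 34.2% (SD 9.44, n = 984 peaks), against 43.4% (SD 9.05) in a flanking window of equal length centred 300 bp toward higher coordinates. It was lower at the summit in 726 peaks, higher in 235 and equal in 23 (two-sided exact sign test, p = 6.49e-59). The flank on the other side averaged 43.8% (SD 9.19). The same difference was -9.15 percentage points for intronic peaks, -6.25 for promoter peaks and -7.51 for intergenic ones, and the differences between classes were not tested. The 150 exonic peaks away from promoters showed no such dip, with 1.06 points. Their GC content was lower at the summit in 67 and higher in 79 (two-sided exact sign test, p = 0.363). The rule keeps intronic summits out of exons, while the flanking windows were not held to it. The strongest of the 4 parts by signal value had 31.4% at the summit and 43.6% in the flank, and the weakest had 38.5% and 41.8%.

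**Figure D5:**
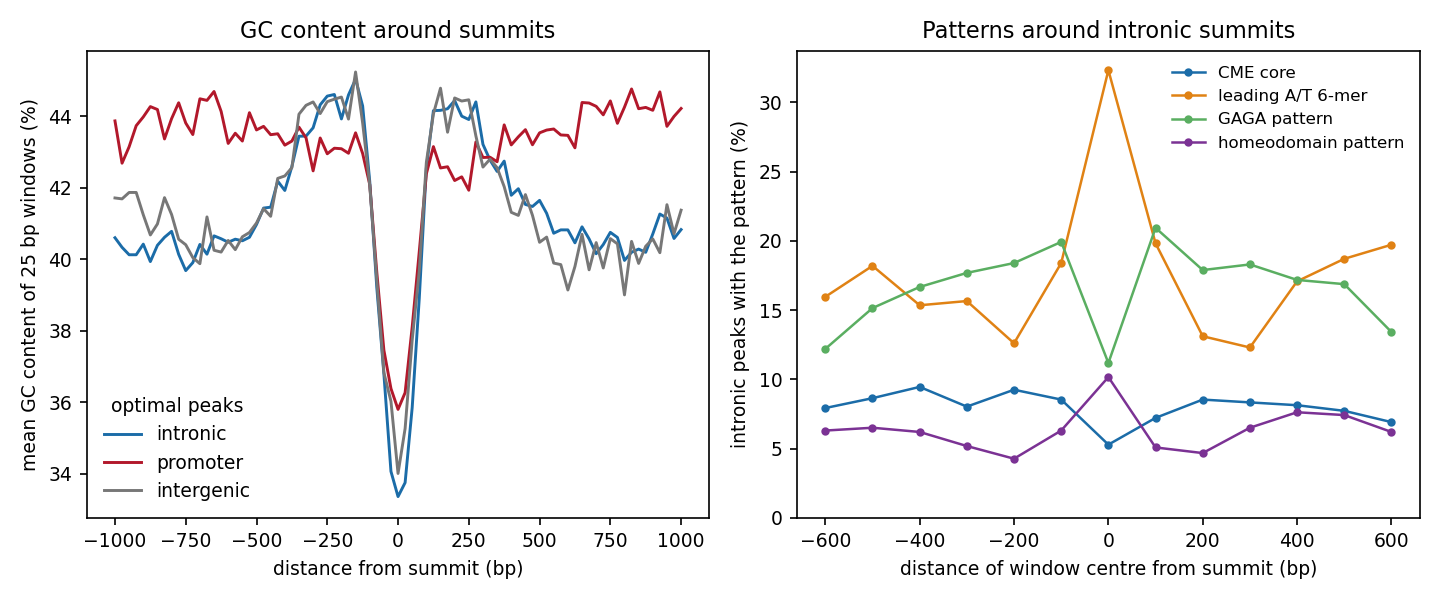
Left, mean GC content in 25 bp windows (vertical, %) by distance from the summit (horizontal, bp) for intronic, promoter and intergenic peaks. Right, share of the 984 intronic peaks with a pattern within 50 bp of a point (vertical, %) by distance of that point from the summit, for the CME core ACGTG, the leading A/T word AAATAT, the GAGA pattern GAGAG and the homeodomain pattern TAATTA. GC content dips at summits in the 3 classes drawn, which leave out exonic peaks. AAATAT reaches 32.3% at the summit, and GAGAG has 11.2% there between 19.9% and 20.9% at 100 bp on either side. At 600 bp on either side GAGAG has 12.2% and 13.4%.

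The CME core was less frequent at intronic summits than beside them. Within 50 bp of the summit, 52 of 984 peaks (5.28%) held ACGTG on either strand, against 82 (8.33%) in the flanking window (exact McNemar adjusted p = 0.0252 over 15 patterns). The longer TACGTG was in 8 summit windows (0.813%) and 22 flanks (2.24%, exact McNemar adjusted p = 0.0302). AACGTG or GACGTG, taken as 1 pattern, and the palindrome CACGTG did not pass (exact McNemar adjusted p = 0.199 and 0.390). All of these longer forms contain ACGTG, so their counts are not separate. Summit windows also had less GC than flanks (34.2% against 43.4%), and the part of base composition in these differences was not tested. The call for ACGTG ended with a promoter limit of 1000 bp (-2.24 points, exact McNemar adjusted p = 0.162) and in the list of replicate 1 alone (-5.11, 0.123), and that for TACGTG ended under 8 of 12 alternatives.

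The strongest peak with the core was that in sim, with 212. The 52 had a median signal value of 67.4, against 73.9 for the 932 without it, and 11 of the 52 were in both replicate lists. In the 4 parts by signal value, from the strongest to the weakest, the core was in 4.47%, 4.88%, 3.66% and 8.13% of summit windows. After sim, the strongest with the core were CG9135 (FBgn0031769), with 181 in the pooled list, 80.3 in replicate 1 and 102.5 in replicate 2, and CG42327 (FBgn0259227), with 169 in the pooled list, 52.0 in replicate 1 and 116 in replicate 2. The RNA-binding protein gene shep, also among the 5 strongest, had 154, with 79.1 in replicate 1 and 80.9 in replicate 2. These 3 peaks and that of sim were in both replicate lists.

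Of the 15 patterns searched on both strands, 8 differed between intronic summits and flanks. The part of base composition in these differences was not tested. More frequent at the summit were TAATTA, the homeodomain pattern (10.2% of summit windows against 6.50% of flanks, exact McNemar adjusted p = 0.0145), and CATATG, an E-box bound by Twist (6.10% against 3.66%, adjusted p = 0.0302). Less frequent were the other E-boxes CAGCTG (2.03% against 4.98%, exact McNemar adjusted p = 0.00261) and CAGGTG, the Snail form (1.83% against 3.96%, adjusted p = 0.0225). GTGGGAA, bound by Su(H), the nuclear effector of Notch, was in 0.305% of windows at summits and 2.13% of those in flanks (exact McNemar adjusted p = 0.00208). The GAGA factor pattern GAGAG was in 11.2% and 18.3% (exact McNemar adjusted p = 1.20e-04), and in 19.9% and 20.9% of windows 100 bp to either side. At 600 bp to either side it was in 12.2% and 13.4%, near the share at the summit. It was thus more frequent close beside the summits than at them or farther away. With the flank 1000 bp away the difference was -1.52 points (exact McNemar adjusted p = 0.470). The Zelda pattern CAGGTAG, the DRE TATCGATA, the POU pattern ATGCAAAT, the Sox pattern ACAATG and the GATA pattern GATAAG did not pass, with exact McNemar adjusted p values from 0.215 to 1.

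Single patterns depended on the list and the flank. In the 372 intronic peaks of replicate 1 alone none of the 15 passed (0 by the exact McNemar test with Benjamini-Hochberg adjustment, 2 at an unadjusted p under 0.05). Of 12 alternatives, 7 ended the call for CATATG and for CAGGTG, 5 that for TAATTA and for CAGCTG, and 2 that for GAGAG and for GTGGGAA, among them a flank 1000 bp away in every case.

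Intronic summits also differed in sequence from promoter summits, and the part of base composition was not tested here either. ACGTG was in 5.28% of intronic and 9.44% of promoter summit windows (two-sided Fisher's exact test, adjusted p = 0.00398 over 30 tests), and TACGTG in 0.813% and 3.43% (adjusted p = 7.54e-04). TATCGATA, the DNA replication-related element that is a known part of many core promoters, was in 0.102% of intronic and 1.76% of promoter windows (Fisher's exact adjusted p = 7.54e-04). CATATG was the reverse, in 6.10% of intronic and 3.33% of promoter windows (Fisher's exact adjusted p = 0.0245). Between intronic and intergenic summits none of the 15 passed (0 by Fisher's exact test with Benjamini-Hochberg adjustment, 1 at an unadjusted p under 0.05). ACGTG was in 6.62% of the intergenic windows (Fisher's exact adjusted p = 0.663). In the list of replicate 1 alone none of the 30 tests passed (Fisher's exact test with adjustment, 2 at an unadjusted p under 0.05), and in that of replicate 2 alone 1 did.

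Without assuming a motif, all words of 6 bases, each merged with its reverse complement, were compared between intronic summits and flanks. More frequent at the summit were 228 words (11.0%), and less frequent 339 (16.3%). The leading words were made of A and T alone. AAATAT was found in 32.3% of summits and 12.3% of flanks (exact McNemar adjusted p = 6.65e-22), ATTTTA in 27.7% and 11.3% (adjusted p = 8.26e-17) and AATATT in 19.1% and 5.69% (adjusted p = 1.71e-16). Most words that passed as more frequent were rich in A and T. The words with 5 or 6 A or T also number 228, and 173 of them passed as more frequent, as did 53 of the 492 words with 4 A or T and 2 of the 1360 with 3 or fewer. The leading words among the less frequent were GCAGCA, in 4.37% of summits and 11.8% of flanks (exact McNemar adjusted p = 2.36e-07), and GCCGCC, in 1.73% and 7.01% (adjusted p = 5.73e-07). The part of the base composition in these words was not tested. Bases that the reference marks as repeats or low complexity made up 23.1% of the summit windows and 17.9% of the flanks.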

How the data were processed

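Whole embryos of 1 group were profiled by ChIP-seq in 2 replicates. The files the authors deposited are peak lists on dm6, per the labels, ranked and thresholded by the irreproducible discovery rate (IDR). Which aligner and caller made them is not given in the sources used here. The deposited score of a peak is its scaled IDR, judged from the values. The deposited signal value is the strength set by the authors' caller, and the authors' −log10 q-value was carried along without further use. The summit is the peak start plus the deposited offset. Signal values serve only to describe or rank peaks within a list, and replicate values are those of the overlapping peak in that replicate's ranked list.

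Genes were those of the Ensembl release 115 annotation of BDGP6, and bases those of RefSeq. Peaks were shared when they overlapped by at least 1 bp. Windows reached 50 bp to either side, the flank centred 300 bp toward higher coordinates. Classes were compared by two-sided Fisher's exact tests, summits and flanks by exact McNemar or sign tests, with Benjamini-Hochberg adjustment and a threshold of 0.05. Binomial and Poisson 95% intervals are exact. The 6-mer test was tried on real windows farther from the summits, with words implanted in some of them. Whether base composition alone can yield such calls was not part of that trial. Alternatives were the promoter limit, TSS and exon sets, merged peaks, other lists, stronger peaks, window width, flank position and overlap rule.

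The class, the gene lists and the patterns were chosen with earlier results of these data known. Named genes are hosts of the 20 strongest peaks, the 10 genes with most peaks, midline hosts, up to 4 hosts of each other list by strongest peak, hosts of the 5 strongest peaks with ACGTG (1 of which is not reported here), and peaks next to the limit. EcR and other genes beyond this rule, such as the remaining EGF receptor hosts, were named after their values were seen. Computations used Python 3.11.15, numpy 2.4.6, pandas 2.3.3, scipy 1.17.1 and matplotlib 3.10.9.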

Additional observations from a re-analysis of the deposited data

How the results depend on the processing

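The GC difference and the lower share of intronic than promoter peaks in both replicate lists kept their direction and stayed past the threshold under every alternative run for them (12 and 6). With a promoter limit of 1000 bp the share of intronic peaks was 29.9%, that in first introns 67.2% (an alternative chosen after seeing the data, as were the replicate lists for this share), 5 patterns differed between summits and flanks, the ACGTG difference was -2.24 points, the conservative-list difference from intergenic peaks turned to -0.547 and the signal difference from promoter peaks passed at -7.24. With the TSS of all genes the conservative-list difference was -0.566. The signal difference from intergenic peaks, which never passed, turned to 0.738 with merged peaks, 1.57 in the conservative list, 2.24 for the upper 25% of signal values, where that from promoter peaks was -6.38, and 0.145 to 3.77 in single replicate lists. Patterns differing from flanks numbered 3 in stronger peaks, 5 with windows of 25 or 100 bp either side and 1 with a flank at 1000 bp. Patterns differing from other classes numbered 1 in stronger peaks and 1 with 25 bp. Words more frequent numbered 107 with 25 bp and 113 with the far flank, and words less frequent 119 and 132. In single replicate lists the intronic share was 34.7% to 36.6%, first introns held 73.7% to 75%, the signal difference from promoter peaks was -8.26 to -7.46, that in ACGTG -6.69 to -5.11, differing patterns 0 to 5 against flanks and 0 to 1 against classes, words more frequent 92 to 234 and less frequent 64 to 376. The causes were not tested. No paired analysis was possible because the series has 1 group. The unknown depth limits what the absence of a peak says.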
